A study of Mus musculus with 15 samples.

Results

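The comparison concerns parthenogenetic mouse embryonic stem cell lines of the same F1 cross that differ in where the oocyte came from. FpB6D2 was made from oocytes grown in cultured preantral follicles and then activated without sperm. OpB6D2 was made from naturally ovulated oocytes activated without sperm. Members were 3 FpB6D2 arrays titled as preantral follicle culture and oocyte parthenogenesis and 3 OpB6D2 arrays titled as parthenogenetic blastocyst. They are 6 of the 15 arrays of the study. The OpB6D2 titles do not name the source of the oocyte.

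The study profiled 5 lines on Affymetrix mouse genome arrays, on which a set of short probes (a probe set) reports each transcript. Both lines compared came from B6D2F1 females, whose mother was C57BL6 and whose father was DBA2, and follicles were taken from prepubertal females. The remaining 9 arrays were of FpB6CBA, a follicle-derived parthenogenetic line of the B6CBAF1 cross, of NmB6D2, a fertilised line from a C57BL6 female and a DBA2 male, and of R1, a purchased fertilised line. Each line is 1 derivation, so the source of the oocyte cannot be told apart from the particular line, its culture history or the mixture of C57BL6 and DBA2 chromosome segments that an F1 oocyte hands on. The labels do not say that the arrays of a line came from separate cultures, so p-values measure only the spread between arrays.

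Parthenogenetic embryos carry chromosomes from the mother only, which leaves paternally expressed imprinted genes without an expressed copy unless their imprints change. In culture, mouse embryonic stem cells sit close to the naive epiblast of the blastocyst, and the balance of LIF, WNT, FGF-ERK and NODAL signalling moves them towards or away from the primed state of the later epiblast. An oocyte acquires its maternal imprints while it grows in the follicle, which is the period that follicle culture replaces.

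Of 12813 genes tested, 480 (3.75%) differed at an adjusted p under 0.05 and by at least 2-fold, a rule that defines a called gene throughout. FpB6D2 was higher for 168 of them (1.31%) and lower for 312 (2.44%). When every array was first centred on its median, the same rule gave 218 higher and 240 lower, so the excess of lower genes depends on how the arrays are scaled. A difference of 4-fold or more was fitted for 13 higher and 7 lower genes, and of 8-fold or more for 4 higher and 0 lower genes. Without the fold minimum, 3352 genes were higher and 3311 lower. Adjusted p-values are from limma with Benjamini-Hochberg adjustment over all genes tested, and values are log2 intensities unless stated otherwise.

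**Figure D1:**
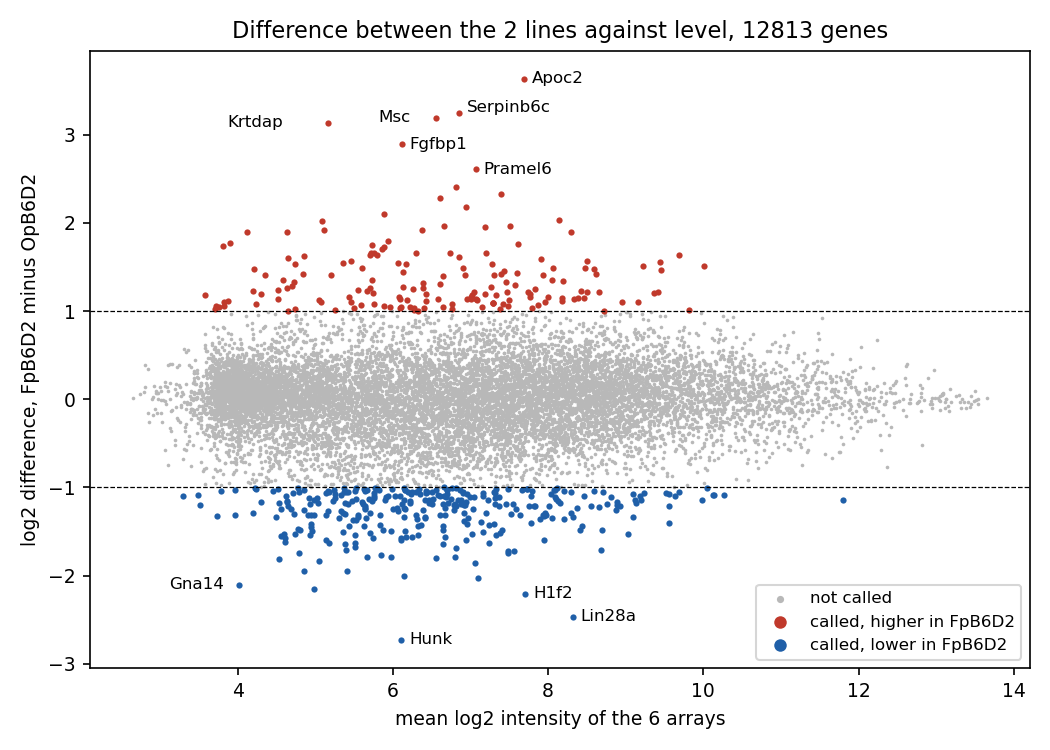
Log2 difference between FpB6D2 and OpB6D2 against the mean log2 intensity of the 6 arrays, with 1 point per gene for 12813 genes. Red points are the 168 genes called higher in FpB6D2 and blue points the 312 called lower, and the dashed lines mark a 2-fold difference.

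Core pluripotency factors were strongly expressed in both lines. Pou5f1, the core pluripotency factor OCT4, had means of 12.01 in FpB6D2 and 12.02 in OpB6D2 (difference -0.01 ± 0.06 SE, adjusted p = 0.89). Nanog differed by 0.11 ± 0.06 (adjusted p = 0.17) and Sox2 by -0.12 ± 0.07 (adjusted p = 0.14). No gene of the 15 on the core pluripotency list was called, beside 3.75% of all genes. The largest difference was that of Foxd3 (0.96 ± 0.11, 1.94-fold). Foxd3 passed the fold minimum with median centring (1.03), with quantile normalisation (1.01), with the replicate block (1.12), without FpB6D2 array 2 (1.04) and without OpB6D2 array 1 or 4 (1.01 each), and 1 gene of the list was called lower when probe sets were averaged or those that may match several transcripts were left out. Defining markers of other lineages ranged widely: Elf5 of trophectoderm, Mixl1 of mesendoderm and Pax6 of neuroectoderm were below the filter value of 3.86, the median of all values, in both lines. Others were well above it in both, with means in FpB6D2 and OpB6D2 of 7.29 and 7.12 for Eomes of trophectoderm and 6.54 and 6.47 for Nes of neuroectoderm. In primitive endoderm the means were 5.35 and 6.26 for Pdgfra, which was not called, and 5.12 and 6.26 for Gata6, which was called lower. Of the fibroblast markers that feeder cells would bring, Lum was below that value in both lines, whereas Col1a1 was at 7.05 ± 0.21 (SD, n = 3) in FpB6D2 and 7.86 ± 0.32 in OpB6D2.

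The largest rise was in Apoc2, the apolipoprotein that activates lipoprotein lipase. It was at 9.55, 9.41 and 9.55 in FpB6D2 against 5.88, 5.86 and 5.87 in OpB6D2, a 12.4-fold difference (3.64 ± 0.12 SE, adjusted p = 1.9e-10). Every FpB6D2 array lay above every OpB6D2 array, as in all 168 genes called higher, which were chosen for a large difference; over all genes tested the share was 30.3%. Serpinb6c, an intracellular protease inhibitor of the clade B serpins, was at 8.31, 8.52 and 8.59 against 5.42, 5.01 and 5.25, or 9.48-fold higher (3.25 ± 0.10). Msc encodes musculin, a basic helix-loop-helix repressor, and was at 8.20, 8.27 and 7.99 against 4.99, 4.91 and 4.99, or 9.15-fold higher (3.19 ± 0.12). Krtdap, a keratinocyte differentiation gene, was at 7.01, 6.61 and 6.59 in FpB6D2 and below the filter value on all OpB6D2 arrays. Its fold was therefore at least 7.32, computed against the filter value.

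The other large rises were spread over unrelated functions. Fgfbp1, which encodes a carrier that releases fibroblast growth factors from the matrix, was 7.43-fold higher (2.89 ± 0.14). Dmtn, an actin-bundling gene, was 5.01-fold higher by its brightest probe set, but another probe set differed by 0.00. Xaf1, a proapoptotic gene that interferon induces, was 5.29-fold higher by its brightest probe set (2.40 ± 0.10) and at -0.28 by the other. Dcaf12l1, an X-linked gene of the WD-repeat family, was at 9.19, 9.14 and 9.16 against 7.13, 7.15 and 7.09 (4.10-fold), and its second probe set gave 2.07. Hddc3, an HD-domain hydrolase gene, was 4.06-fold higher.

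The largest fall was in Hunk, a kinase of the SNF1 and AMPK family. It was at 4.73, 4.82 and 4.69 in FpB6D2 against 7.50, 7.49 and 7.43 in OpB6D2, or 6.63-fold lower (-2.73 ± 0.09, adjusted p = 1.7e-10). H1f2, which encodes a linker histone, was 4.62-fold lower (-2.21 ± 0.07), while its other probe sets gave -2.90 and -0.13. Gna14, a G protein alpha subunit gene, was below the filter value in FpB6D2 and at least 2.29-fold lower. Cd99, a cell surface glycoprotein gene, was lower on all 3 of its probe sets (-1.80, -1.43 and -1.20). Lpp, a LIM-domain gene of cell adhesions, was called on 4 of 8 probe sets, which ran from -1.86 to 0.14.

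**Figure D2:**
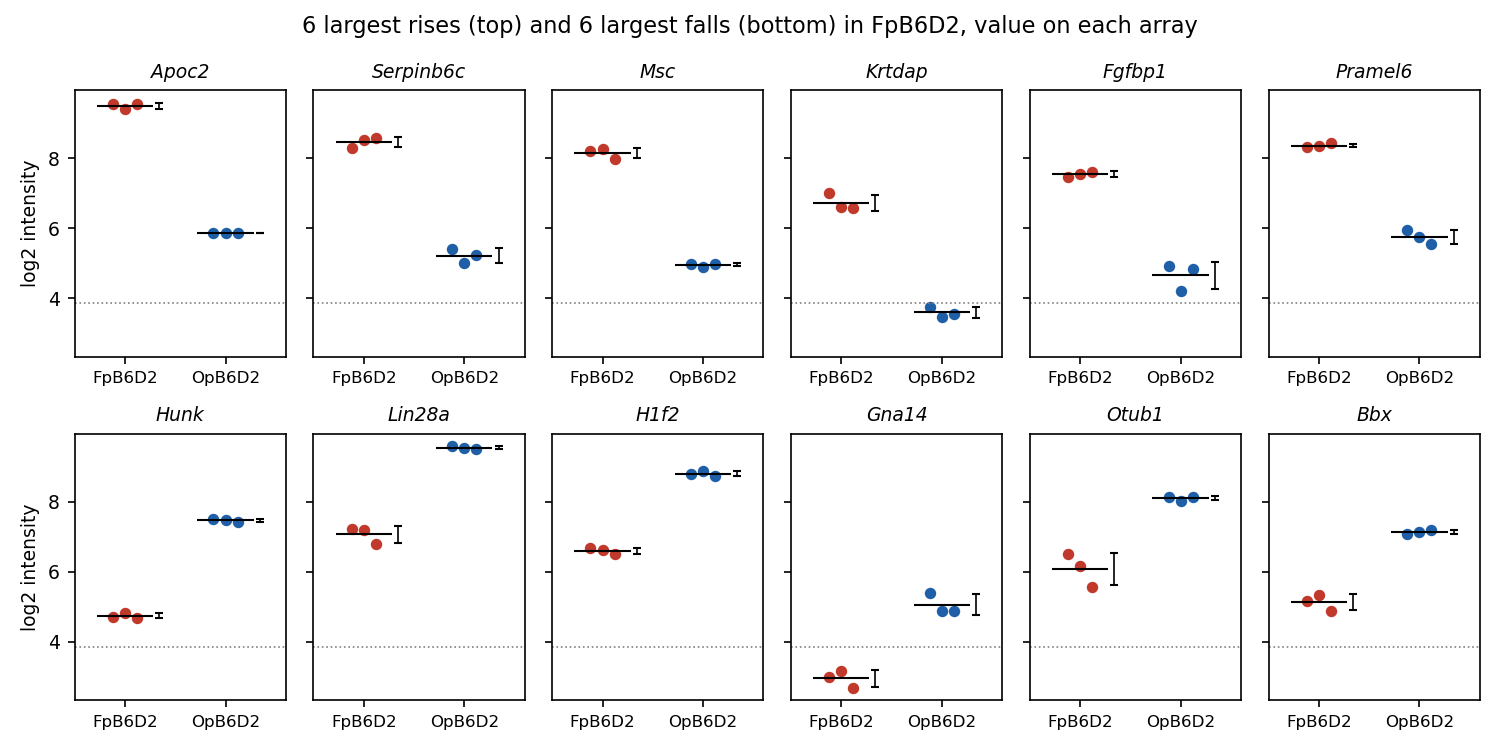
Log2 intensity on each of the 3 FpB6D2 arrays (red) and 3 OpB6D2 arrays (blue) for the 6 largest rises and the 6 largest falls, leaving out clone and predicted-gene names. Horizontal bars are means, error bars are SD, and the dotted line is the filter value of 3.86. The groups do not overlap for any of these genes, which were chosen for a large difference. Over all genes tested, FpB6D2 lay above OpB6D2 without overlap in 30.3% and below in 29.6%.

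Several large falls rested on a single probe set of the gene. Otub1, a deubiquitinase gene, was at 6.51, 6.16 and 5.58 against 8.15, 8.04 and 8.14 (-2.03 ± 0.19), but its other probe set gave 0.08. Herc1, a large ubiquitin ligase gene, was 3.87-fold lower. Bbx, an HMG-box gene, was 4.03-fold lower by its brightest probe set, and 4 others gave -0.86 to 0.01. Slc35a5, a gene of the nucleotide sugar transporter family, gave -1.83 and -0.30. Among genes called lower, 166 had another tested probe set, and in 102 of these no other probe set was called lower. Among genes called higher, 39 of 62 had no other probe set called higher. When the probe sets of each gene were averaged, Tet1, Sox7, Hddc3, Jam2, Sfmbt2, Wnt5a, Inhba, Gata6, Lrp2, Pfkfb3, Meg3, Rian, Bmpr2, Herc1 and the fibroblast genes Col3a1, Col5a2 and Prrx1 also fell short of 2-fold. Such averages also take in probe sets that did not pass the filter, and both tested probe sets of Gata6 were called lower (-1.14 and -1.08). Tested per probe set, 997 of 24524 (4.07%) were called, 286 higher and 711 lower.

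Lin28a encodes an RNA-binding protein that blocks maturation of the let-7 microRNAs, which share a seed and repress mRNAs that carry its complement. Mature let-7 sequences are printed below from RefSeq to show that shared seed (bases 2 to 8, in capitals), although the arrays did not measure microRNAs.
let-7a-5p: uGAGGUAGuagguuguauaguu
let-7g-5p: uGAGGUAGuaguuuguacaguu
let-7i-5p: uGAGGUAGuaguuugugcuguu
Lin28a was at 7.24, 7.19 and 6.80 in FpB6D2 against 9.60, 9.55 and 9.50 in OpB6D2, or 5.54-fold lower (-2.47 ± 0.10, adjusted p = 6.5e-10). All FpB6D2 arrays lay below all OpB6D2 arrays, as in all 312 genes called lower. Over all genes tested that share was 29.6%. The dimmer probe set of Lin28a gave -0.60, which is less than 2-fold. Of 24 tested genes on the list of LIN28 genes and let-7 targets, Lin28a was the 1 called, a share near the 3.75% of all genes. The list had a median of -0.05 against 0.02 over all genes tested. With median-centred arrays these medians were 0.02 and 0.09.

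Keratins and the trophectoderm factor Tead4 were higher in FpB6D2. Of 26 tested genes of the trophectoderm list, 6 were called higher and 0 lower, beside 1.31% and 2.44% of all genes, and the list had a median difference of 0.31. Krt8 and Krt18 encode partner keratins of simple epithelia and are neighbouring genes. Krt8 was at 9.25, 9.24 and 9.18 against 7.68, 8.03 and 7.49 (1.49 ± 0.12, 2.81-fold), and all 3 of its probe sets were called. Krt18 was at 9.23, 9.38 and 9.26 against 7.58, 7.97 and 7.61 (1.57 ± 0.10, 2.97-fold). These keratins were below their levels in the other 3 lines, where the means of Krt8 were 10.95 in FpB6CBA, 11.24 in NmB6D2 and 11.05 in R1. Thus OpB6D2 was the lowest of the 5 lines for both. Krt7 rose 2.66-fold, Krt19 2.04-fold and the X-linked homeobox gene Rhox9 2.18-fold.

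Tead4, a transcription factor required for trophectoderm, was at 6.89, 6.83 and 6.79 against 5.09, 4.93 and 5.10 (1.80 ± 0.11, 3.47-fold). Here FpB6D2 stood above all other lines, whose means ran from 5.04 in OpB6D2 to 5.78 in R1. Cdx2 (0.40), Gata3 (0.60) and Elf5 (0.37), the factors that define trophectoderm, were not called. Tfap2c had the lowest difference of the list (-0.78) and was not called either. Averaged over the 26 genes, the level of the list was 6.42 to 6.46 on the FpB6D2 arrays and 5.99 to 6.05 on the OpB6D2 arrays.

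A few genes of the naive state rose strongly in FpB6D2. Of 29 tested genes of that list, 5 were called higher and 0 lower, beside 1.31% and 2.44% of all genes, with a median of 0.09. Pramel6 and Pramel7 are neighbouring genes of the PRAME-like family, which is expressed in the early embryo. Pramel6 was at 8.33, 8.34 and 8.43 against 5.96, 5.77 and 5.55 (2.61 ± 0.12, 6.11-fold). Pramel7 was at 7.58, 7.79 and 7.85 against 5.64, 5.57 and 5.16 (2.28 ± 0.11, 4.86-fold). Both had means below the filter value in each of the other 3 lines. Their brightest probe sets may match several transcripts, and near-identical copies of the family could share probes. The more specific probe set of Pramel6 gave 0.92.

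Tcl1, a coactivator of AKT kinase, was 2.79-fold higher, and Jam2, a junctional adhesion gene, 2.85-fold higher (1.51 ± 0.06). Jam2 was called on 2 of its 5 probe sets, which ran from 0.07 to 1.51. Regulators that hold the naive state gave smaller values, among them Klf4 (0.13), Esrrb (0.06), Tfcp2l1 (0.04), Tbx3 (0.96) and Stat3 (-0.57), none of them called.

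Primed epiblast genes were called in the opposite direction. Of 22 tested, 0 were higher and 5 lower, beside 1.31% and 2.44% of all genes, with a median of -0.15. The 5 were Lef1, Cdh2, Dnmt3a, Lefty1 and Lefty2. All but Cdh2 are counted again in the WNT, DNA methylation or NODAL lists below, so these lists are not separate findings. Lef1, a transcription factor of the WNT pathway, was at 5.998, 5.89 and 5.89 against 7.38, 7.41 and 7.31 (-1.44 ± 0.07, 2.72-fold lower). Cdh2, the gene of N-cadherin, was 2.02-fold lower. Fgf5, a marker of that state, differed by 0.09, Otx2 by -0.09 and Fgf15 by 0.74, none of them called. The mean level of the 22 genes was 6.03 to 6.10 on the FpB6D2 arrays and 6.41 to 6.44 on the OpB6D2 arrays.

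NODAL feedback inhibitors fell in FpB6D2. In the NODAL and activin list, 3 of 26 genes were lower and 1 higher, beside 2.44% and 1.31% of all genes, with a median of 0.10 that became -0.05 when probe sets were averaged. Lefty1, a secreted antagonist of NODAL, was at 7.33, 7.15 and 7.17 against 8.43, 8.32 and 8.53 (-1.21 ± 0.08, 2.31-fold lower). Lefty2, its neighbouring paralog, was at 4.64, 4.59 and 4.87 against 6.33, 6.31 and 6.34 (-1.63 ± 0.13, 3.09-fold lower). Nodal, the ligand, differed by 0.27 and was not called. Foxh1, the transcription factor that carries the signal with SMADs, was 2.16-fold lower by its brightest probe set (-1.11 ± 0.07). Its other probe sets gave -1.67, which was called lower, and -0.33, which was not. The value of -0.33 stood for the gene when probe sets that may match several transcripts were left out. Inhba, which encodes the activin A subunit, was 2.33-fold higher.

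Other signalling lists held few calls, to be read against the same shares of all genes (1.31% higher, 2.44% lower). The WNT list had 0 higher and 3 lower of 40, which were Lef1, the ligand gene Wnt5a (2.26-fold lower) and the secreted inhibitor gene Sfrp2 (2.17-fold lower). The last 2 missed the fold minimum without OpB6D2 array 4 (Wnt5a, -0.99) and without FpB6D2 array 2 (Sfrp2, -0.97). The FGF-ERK list had 1 higher and 2 lower of 31. Dusp6, the ERK phosphatase that ERK itself induces, was at 7.65, 7.70 and 7.81 against 9.12, 9.21 and 9.14 (-1.44 ± 0.06, 2.71-fold lower). FpB6CBA, the other follicle-derived line, had a mean of 7.47 for Dusp6, and NmB6D2 and R1 had 9.19 and 9.40. In the BMP list, the target gene Id4 was 2.20-fold higher on all 3 probe sets and the receptor gene Bmpr2 2.49-fold lower on 1 of 2.

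**Figure D3:**
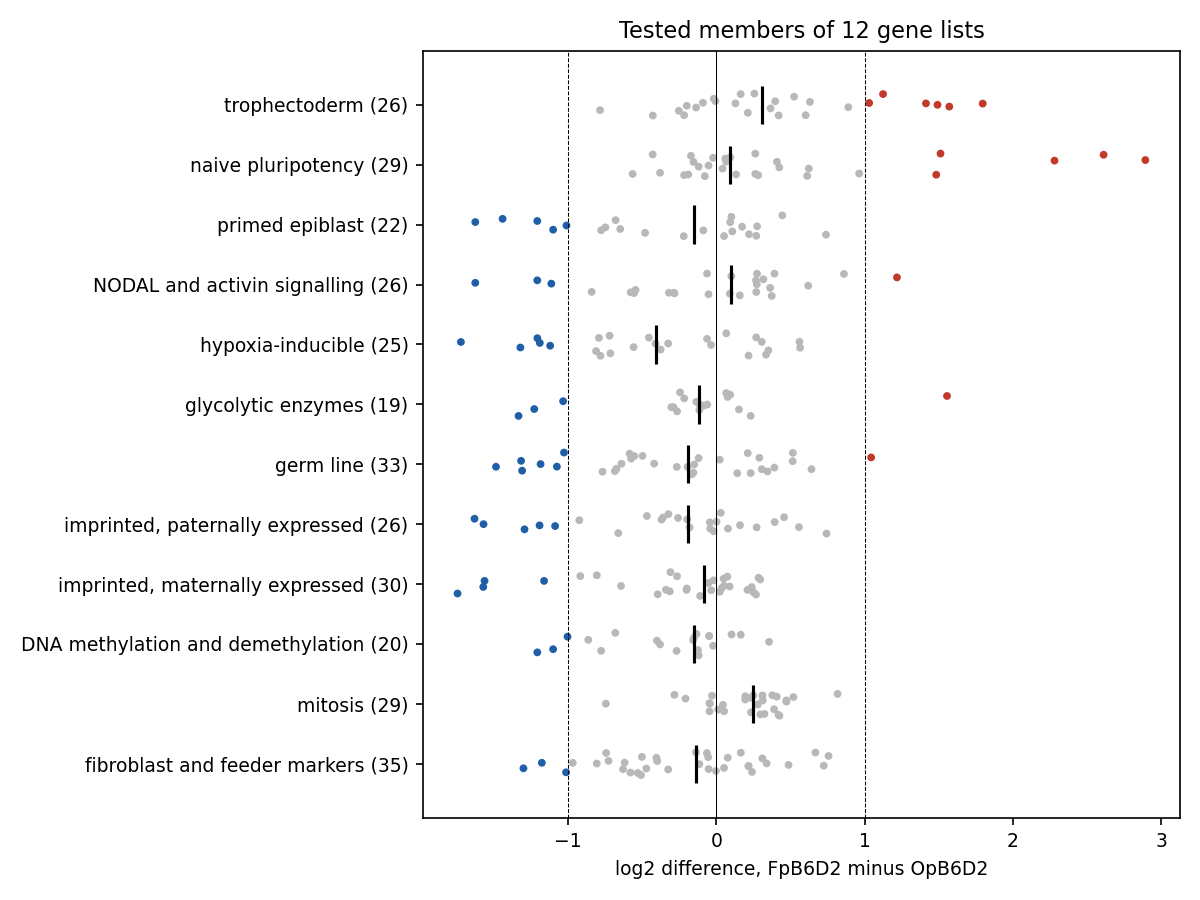
Log2 difference between FpB6D2 and OpB6D2 for each tested member of 12 gene lists, with the number tested in parentheses and vertical spread added only to separate points. Red and blue points are members called higher and lower, grey points were not called, black bars are list medians and dashed lines mark 2-fold. Naive and trophectoderm members were called only to the right and primed, hypoxia-inducible and imprinted members only to the left.

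Several hypoxia-inducible genes fell in FpB6D2. Cells with little oxygen stabilise the HIF transcription factors, which raise glucose transport, lactate export and other low-oxygen functions. These factors bind the core letters ACGTG or GCGTG. Of 25 tested genes, 0 were higher and 5 lower, beside 1.31% and 2.44% of all genes, and the list median of -0.41 was the lowest of the 43 lists. Slc16a3, the lactate exporter MCT4, was at 7.10, 6.51 and 6.49 against 8.19, 8.62 and 8.45 (-1.72 ± 0.14, 3.30-fold lower). Egln3, a HIF prolyl hydroxylase and HIF target, was at 7.22, 7.40 and 7.23 against 8.59, 8.55 and 8.67 (-1.32 ± 0.08, 2.50-fold lower). Every FpB6D2 array lay below every OpB6D2 array for both genes, as for 29.6% of all genes tested.

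Pdk1, the kinase that inhibits pyruvate dehydrogenase in the mitochondrion, was at 7.98, 7.87 and 7.97 against 9.21, 9.12 and 9.11 (-1.21 ± 0.05, 2.31-fold lower). Adm, the gene of the vasodilator adrenomedullin, was 2.28-fold lower, and Egln1, the main HIF prolyl hydroxylase, 2.18-fold lower. Vegfa, the angiogenic growth factor and a classic HIF target, had the opposite sign (0.56) and was not called. Car9 differed by -0.04. For 4 of the 5 called genes, Slc16a3, Egln3, Pdk1 and Egln1, FpB6D2 had the lowest mean of the 5 lines, and NmB6D2 had the highest, at 9.74, 9.53, 10.47 and 9.24. For Adm the lowest mean was that of R1 (5.68, against 6.28 in FpB6D2) and the highest that of FpB6CBA (8.99).

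Promoter sequences are shown for the hypoxia-inducible genes that fell and whose window held ACGTG on either strand, in capitals. Each is the 250 bases before the gene's start, read on the gene's strand, from RefSeq (GRCm38.p6). Egln1 is at chr8:124949255-124949504 on the minus strand, Egln3 at chr12:54203875-54204124 on the minus strand and Slc16a3 at chr11:120948817-120949066 on the plus strand.
Egln1: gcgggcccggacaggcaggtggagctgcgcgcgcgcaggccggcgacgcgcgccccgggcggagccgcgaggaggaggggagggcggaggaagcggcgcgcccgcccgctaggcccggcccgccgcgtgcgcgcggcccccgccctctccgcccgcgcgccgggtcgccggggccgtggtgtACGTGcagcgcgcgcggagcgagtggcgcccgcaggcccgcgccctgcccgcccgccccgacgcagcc
Egln3: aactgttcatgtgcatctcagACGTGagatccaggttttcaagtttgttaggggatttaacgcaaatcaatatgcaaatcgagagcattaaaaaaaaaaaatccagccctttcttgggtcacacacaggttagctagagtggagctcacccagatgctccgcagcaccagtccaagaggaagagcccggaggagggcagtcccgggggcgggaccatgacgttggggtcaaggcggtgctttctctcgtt
Slc16a3: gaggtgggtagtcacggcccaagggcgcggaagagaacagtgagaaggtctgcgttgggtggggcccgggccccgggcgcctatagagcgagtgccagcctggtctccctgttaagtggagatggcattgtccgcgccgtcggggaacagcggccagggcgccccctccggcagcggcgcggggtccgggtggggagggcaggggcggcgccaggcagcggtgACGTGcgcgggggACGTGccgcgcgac
Slc16a3 held 2 matches to ACGTG and the others 1 each. The windows of Pdk1 and Adm held no ACGTG, but both held GCGTG on either strand. GCGTG was not marked or counted in any window. Over 10333 promoters of tested genes, 21.5% held ACGTG, and 13 of 21 genes of the hypoxia-inducible list with a promoter did so. A match describes letters and not binding.

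Energy metabolism was otherwise mixed. Of 19 glycolytic enzyme genes, 1 was higher and 3 lower, beside 1.31% and 2.44% of all genes, with a median of -0.12. Ldhb, the lactate dehydrogenase subunit of aerobic tissues, was at 10.22, 10.23 and 10.21 against 8.69, 8.61 and 8.70 (1.56 ± 0.06, 2.94-fold higher), and all 4 probe sets were called. Eno3, the muscle enolase, was 2.34-fold lower, Eno2, the neuronal enolase, at least 2.45-fold lower, and Pfkfb3, which makes the allosteric activator of phosphofructokinase, 2.05-fold lower. Pfkfb3 had a second probe set at 0.38, and its difference was -0.85 without FpB6D2 array 3 and -0.998 without OpB6D2 array 4. None of the 33 oxidative phosphorylation genes was called, beside 3.75% of all genes, and their median was 0.13.

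Imprinted genes were called only lower in FpB6D2. Of 26 tested genes on the list of paternally expressed genes, 5 were lower and 0 higher (median -0.19). Of 30 on the list of maternally expressed genes, 4 were lower and 0 higher (median -0.08). Over all genes the shares were 2.44% lower and 1.31% higher. One of the paternally expressed genes called lower, Peg12, was below the filter value in FpB6D2. Nnat, a paternally expressed gene of membrane and neural functions, was at 6.44, 6.67 and 6.15 against 7.96, 8.01 and 8.19 (-1.63 ± 0.15, 3.10-fold lower). Zdbf2 was at 6.97, 6.97 and 6.65 against 8.09, 8.03 and 8.05 (-1.19 ± 0.09, 2.29-fold lower). Sfmbt2, a Polycomb-related gene, was 2.45-fold lower, with means of 5.05 in FpB6D2 and 6.35 in OpB6D2. The fertilised lines differed from each other, with means of 8.83 in NmB6D2 and 6.18 in R1 for Sfmbt2. For Nnat they had 8.71 and 4.17, and for Zdbf2 6.83 and 8.75, beside 6.86 for Zdbf2 in FpB6D2. Ampd3, an AMP deaminase gene that is imprinted in placenta, was 2.97-fold lower, and NmB6D2 and R1 had means of 5.75 and 5.04. The count and median of the paternal list include Ampd3, although its expressed allele in placenta is the maternal one. Igf2, the paternally expressed growth factor, differed by -0.20, Snrpn by 0.39 and Peg3 by -0.66, and none was called.

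The maternally expressed noncoding RNAs Meg3, Rian and Mirg are neighbours on chromosome 12 and formed a run of 3 called genes. Meg3 was at 6.66, 6.58 and 6.58 against 8.32, 8.48 and 8.26 (-1.75 ± 0.14, 3.35-fold lower). Rian was 2.96-fold lower and Mirg 2.97-fold lower. Probe sets of these RNAs disagreed: those of Meg3 ran from -1.88 to 0.11, those of Rian from -1.56 to -0.31 and those of Mirg were at -1.57 and -0.58. Tfpi2, a maternally expressed protease inhibitor gene, was 2.24-fold lower.

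The DNA methylation machinery was lower in part. Of 20 genes, 3 were lower and 0 higher, beside 2.44% and 1.31% of all genes, with a median of -0.15. Dnmt3a, the methyltransferase that sets imprints in the oocyte, was at 7.91 ± 0.09 (SD, n = 3) against 9.01 ± 0.04 (-1.10 ± 0.08, 2.15-fold lower). Of its 5 probe sets, 4 were called, and all ran from -2.06 to -0.94. Uhrf1, which brings the maintenance methyltransferase to replicated DNA, was 2.01-fold lower, just past the fold minimum, and its second probe set gave -1.38. Without FpB6D2 array 3, OpB6D2 array 1 or OpB6D2 array 4 its difference was -0.97, -0.997 and -0.98. Tet1, which oxidises methylcytosine, was at 8.84, 9.02 and 9.01 against 10.17, 10.18 and 10.15 (-1.21 ± 0.12, 2.31-fold lower). Dnmt3b differed by -0.78 and was not called.

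Some germ-line genes were called lower. Of 33 tested, 6 were lower and 1 higher, beside 2.44% and 1.31% of all genes, with a median of -0.19. Stra8, the gate to meiosis that retinoic acid induces, was at 7.34, 7.24 and 7.37 against 8.69, 8.50 and 8.69 (-1.31 ± 0.09, 2.48-fold lower). Rhox13, an X-linked homeobox gene, was 2.80-fold lower and Sohlh2, a germ cell transcription factor gene, 2.49-fold lower. Sycp1 and Syce1, which build the synaptonemal complex, were 2.28-fold and 2.04-fold lower, whereas Sycp3, of the same complex, was 2.06-fold higher. Khdc3, a maternal-effect gene of the oocyte, was 2.35-fold lower. Dazl (-0.17) and Ddx4 (-0.15), widely used germ cell markers, were not called.

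Clade B serpins were higher in 3 of 7 tested genes and lower in 0, beside 1.31% and 2.44% of all genes, with a median of 0.98. Beside Serpinb6c, Serpinb9b was 2.12-fold higher, and Serpinb1a, below the filter value in OpB6D2, at least 1.34-fold higher. Serpinb9b had 0.99 without FpB6D2 array 2 and Serpinb1a 0.94 without OpB6D2 array 5. Only 7 of 18 serpin genes on the array passed the filter, so the median is over those alone. Endoderm genes split: Sox7 was at 6.58, 6.62 and 6.55 against 5.00, 4.89 and 4.89 (1.66 ± 0.10, 3.15-fold higher), and Thbd 2.24-fold higher. Gata6, a defining endoderm factor, was 2.20-fold lower, and Lrp2, an endocytic receptor gene, 2.21-fold lower (-0.96 without FpB6D2 array 2). Usp17la, a deubiquitinase gene on the 2-cell-like list, was 3.92-fold higher, and only 3 of the 8 genes of that list on the array passed the filter. Tgm2, a transglutaminase gene induced by retinoic acid, was 3.40-fold higher, with 4 of its 5 tested probe sets called.

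Fibroblast markers were lower for 3 of 35 genes and higher for 0, beside 2.44% and 1.31% of all genes, with a median of -0.14. Col5a2 was 2.46-fold lower, Prrx1 2.26-fold lower and Col3a1 2.02-fold lower, or less than 2-fold without FpB6D2 array 3, OpB6D2 array 1 or OpB6D2 array 4 (-0.95, -0.93 and -0.90). The mean level of the list was 7.77 to 7.86 on the FpB6D2 arrays and 7.81 to 8.20 on the OpB6D2 arrays, so the groups overlapped. Fewer fibroblasts and less RNA per cell cannot be told apart in such bulk samples, and the part of feeder cells in the other differences was not tested. Lists without a call included mitosis (29 genes, median 0.25), p53 targets (27 genes, median -0.24), cholesterol synthesis (21 genes, median 0.03) and ribosomal proteins (23 genes, median -0.00). Over all genes the share called was 3.75%.

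**Figure D4:**
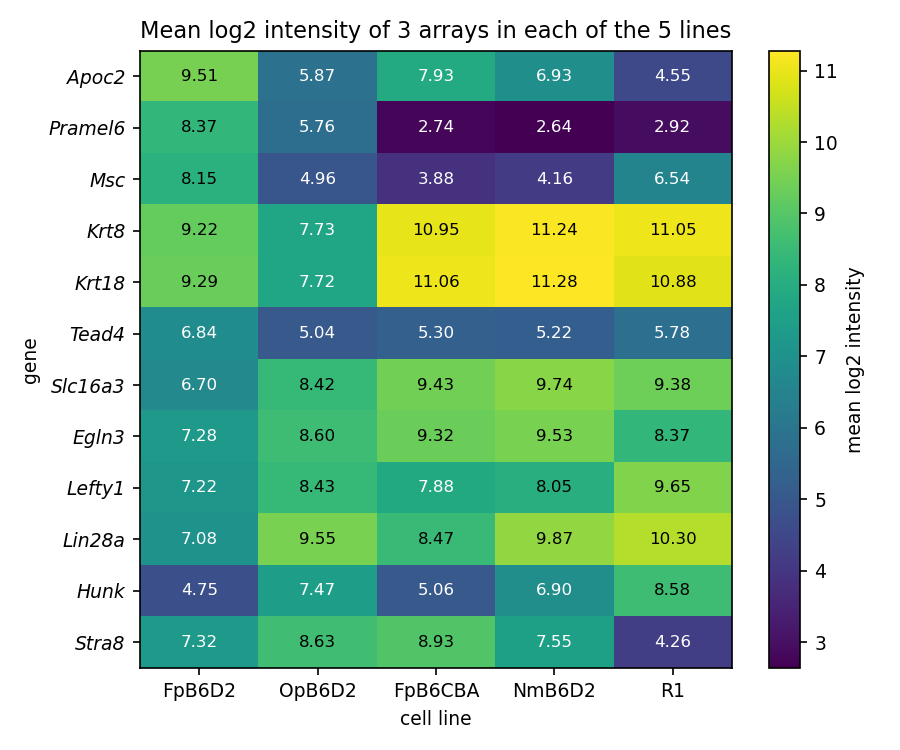
Mean log2 intensity over 3 arrays for 12 named genes (rows) in each of the 5 lines (columns), with colour from low (dark) to high (bright). Pramel6 stood above 5 only in FpB6D2 and OpB6D2, Krt8 and Krt18 were lowest in OpB6D2, and Lin28a, Egln3 and Slc16a3 were lowest in FpB6D2.

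Levels in the other 3 lines showed which of the lines compared stood apart. FpB6D2 lay above the means of FpB6CBA, NmB6D2 and R1 in 125 of the 168 genes called higher (74.4%), and in 27.5% of all genes tested. OpB6D2 lay below those means in 52 of the 168 (31.0%), and in 20.3% of all genes. Of the 312 genes called lower, FpB6D2 was below the other lines in 206 (66.0%) and OpB6D2 above them in 122 (39.1%), against 22.8% and 21.5% of all genes. The calls themselves favour extreme lines, so these shares are a description. Msc, for example, had means of 3.88 in FpB6CBA, 4.16 in NmB6D2 and 6.54 in R1 beside 8.15 in FpB6D2. Hunk had 5.06 in FpB6CBA, near the 4.75 of FpB6D2, and 6.90 in NmB6D2 and 8.58 in R1. Stra8 was lower in FpB6D2 than in OpB6D2 but had its lowest mean, 4.26, in R1.

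Genes of chromosome 7 were higher in FpB6D2 along a continuous stretch. Tested genes were put in chromosome order (RefSeq, GRCm38.p6) and split into windows of 50, which gave 247 windows. The 8 windows with the highest medians of all chromosomes lay on chromosome 7, as did 10 of the top 12. All 12 windows in the first 600 tested genes of that chromosome, from AU018091 to Prss23, had a median above 0, from 0.10 to 0.40. Beyond them the windows ran from -0.12 to 0.11. The highest window of another chromosome was at 0.23, on chromosome 14. Chromosomes 16 and X had larger shares of genes called than the 5.73% of chromosome 7. Chromosome 16 had 6.40%, with 7 higher and 19 lower of 406. Chromosome X had 7.25%, with 16 higher and 14 lower of 414. Its adjoining windows from Snx12 to Tmem164 had medians of -0.14 and -0.20, among the lowest of all windows. The windows and the stretch were chosen after these values were seen, so no test is given.

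In those 600 genes the median difference was 0.26, and 437 (72.8%) were above 0. In the other 429 genes of chromosome 7 the median was -0.00 and 49.9% were above 0. Of the 600 genes, 33 (5.50%) were called higher and 11 (1.83%) lower, against 1.10% and 2.44% in the rest of the genome. Set against the mean of the other 3 lines, the median of the 600 genes was 0.24 on each FpB6D2 array, between 0.00 and 0.01 on the OpB6D2 arrays and between -0.05 and 0.03 on the remaining 9. FpB6D2 was thus the line that differed, and its 3 arrays lay above the other 12. The shift was small per gene and held across the stretch: without the 3 OpB6D2 arrays, FpB6D2 minus NmB6D2 gave a median of 0.22 there and -0.01 in the rest of chromosome 7.

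Of the 36 genes called higher on chromosome 7, 33 lay in this stretch, Apoc2, Krtdap and Hddc3 among them. So did the run of 4 neighbouring genes Gapdhs, Sbsn, Dmkn and Krtdap, the longest run called in the same direction. Sbsn, which encodes suprabasin of the epidermis, was 2.39-fold higher, Gapdhs, the sperm glycolytic enzyme, 2.52-fold higher, and Dmkn, the gene of dermokine, at least 1.31-fold higher. The difference of Dmkn was 0.92 without FpB6D2 array 2. Chosen after their values were seen, Relb, an NF-kappaB subunit gene, was at 6.49, 6.77 and 6.37 against 4.91, 5.01 and 4.74 (1.66 ± 0.17), and Zfp296, a zinc finger gene of pluripotent cells, at 9.30, 9.37 and 9.33 against 7.91, 7.93 and 7.88 (1.43 ± 0.06). The arrays measured RNA, and what underlies the shift was not tested.

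**Figure D5:**
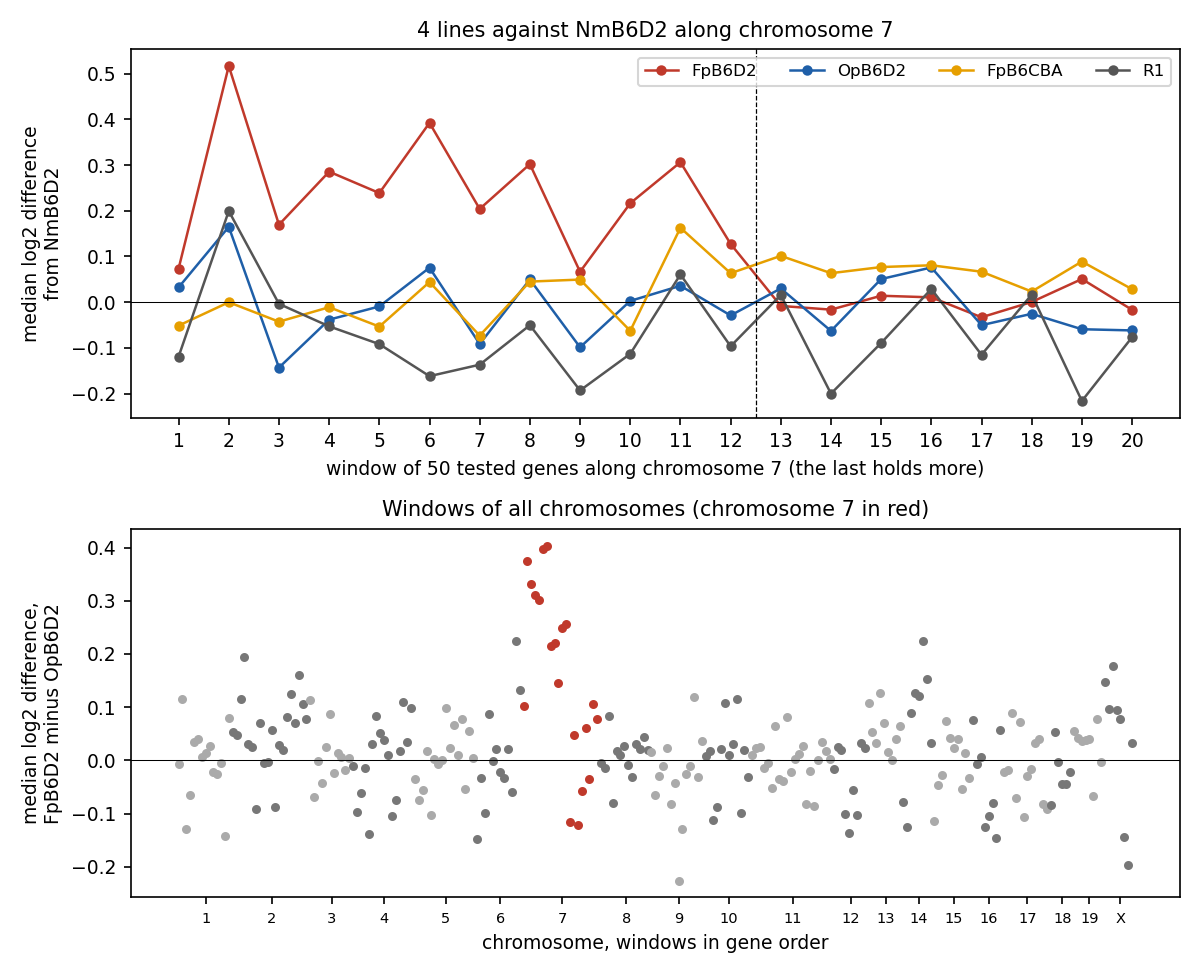
Upper panel: median log2 difference from NmB6D2 in consecutive windows of 50 tested genes along chromosome 7, for FpB6D2, OpB6D2, FpB6CBA and R1, with a dashed line after the first 600 genes. Lower panel: median log2 difference between FpB6D2 and OpB6D2 in the 247 windows of all chromosomes. FpB6D2 lies above the other lines in each of the first 12 windows of chromosome 7 and joins them after the dashed line.

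Longer genes held more of the falls. With tested genes split by genomic length into 5 classes of equal size, 42 of 2553 (1.65%) were called lower in the shortest class and 118 of 2553 (4.62%) in the longest, while those called higher went from 50 (1.96%) to 21 (0.823%). Median differences went from 0.06 to -0.09. RNA quality measures moved with the lines as well: the 3' minus 5' difference of actin was 0.62 to 0.65 on the FpB6D2 arrays and 0.50 to 0.55 on the OpB6D2 arrays. That of Gapdh went the other way, at -0.08 to -0.03 against 0.03 to 0.08. Their part in the falls was not tested.

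Array medians over the tested genes lay between 6.66 and 6.70 in FpB6D2 and between 6.75 and 6.76 in OpB6D2. Over the genes tested, which are not independent replicates, Pearson's r was 0.996 to 0.997 within a line and 0.974 to 0.978 between an FpB6D2 and an OpB6D2 array.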

How the data were processed

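Total RNA of 15 arrays was labelled with biotin. For each array the authors deposited 1 log2 intensity per probe set, made with RMA in the affy package, per the submitters' processing notes, which give no versions. The log2 scale was inferred from values of 1.99 to 13.96. No genome build is given in the sources used here.

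Of 45101 probe sets, 34945 carried 1 gene symbol. A gene was represented by its probe set with the highest mean, and 12813 of 18193 genes were tested, those at or above the overall median of 3.86 on 3 or more arrays. The contrast FpB6D2 minus OpB6D2 was fitted in R 4.3.3 with limma 3.58.1, using a mean per line on all 15 arrays, empirical Bayes moderation and Benjamini-Hochberg adjustment. On simulated data of 12813 genes this fit recovered 100% of 100 genes changed by 1.5 and called 0 unchanged genes. Of the genes changed by 1, 98% passed the adjusted p, as did 10 unchanged genes. Simulated noise was independent and of the size seen between arrays of a line, so it cannot speak to the spread between derivations. Values are listed by title number, 1, 2 and 3 for FpB6D2 and 1 (the array with no number), 4 and 5 for OpB6D2. SD is over the 3 arrays of a line and SE is that of the fit. Folds against a line below the filter value are lower bounds, computed against it. The number of arrays limits the precision.

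The comparison and its 43 gene lists (1166 of 1332 entries on the array, 1050 tested) were chosen with earlier results of these data known. Named genes are the 12 largest called rises and falls without clone or predicted-gene names, in each list the 4 called members that differed most or the 2 largest differences where none was called, 4 fixed genes and called runs of neighbours; other genes are named as remaining called members, as known markers or where said. Promoters, microRNAs and gene order are from RefSeq. Figures were drawn with matplotlib 3.10.9. Alternatives covered filters, probe set choice, scaling, variance models, thresholds, single arrays and a replicate block.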

Additional observations from a re-analysis of the deposited data

Results flagged for a closer look

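Control probe sets outside the gene comparison differed between the lines. Hybridisation controls, added before hybridisation, averaged 10.02 to 10.11 on the FpB6D2 arrays and 9.50 to 9.58 on the OpB6D2 arrays, a difference of 0.51. Poly-A controls, added to the RNA, were 7.72 to 7.81 against 7.39 to 7.68, a difference of 0.24. FpB6CBA had 9.71 to 10.41 for the hybridisation controls, and NmB6D2 and R1 had 9.46 to 9.73 and 9.36 to 9.58. Their part in the differences between genes was not tested.

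Probe sets that carry no gene symbol also differed. Of 1956 that passed the filter, 41 were called lower and 14 higher in FpB6D2 (2.10% and 0.716%), beside 2.94% and 1.18% of 21960 probe sets with 1 symbol.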

How the results depend on the processing

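Counts of called genes stayed within 1.5 times of 480 with other filters, variance models, array weights, a fit on 6 arrays, scalings, the test against 1.5-fold and without _s_at and _x_at probe sets. Averaging the probe sets of a gene left 299 calls, 175 of them lower. Such a mean also takes in probe sets that did not pass the filter, and what ended each call was not tested. Per probe set there were 997 calls, 286 higher and 711 lower, of more features. A fold minimum of 1.5 gave 1903 calls (789 higher, 1114 lower) and no minimum 6663 (3352 higher, 3311 lower). Leaving out each array in turn gave 467 to 509 calls, 167 to 179 higher and 299 to 330 lower. The replicate block on the numbered arrays gave 570 calls (180 higher, 390 lower). Deviations of same-numbered arrays of different lines correlated at -0.18 to 0.13. FpB6D2 and OpB6D2 share no number in their titles, so these values cannot say whether their arrays were paired.

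The median of the first 600 genes of chromosome 7, an alternative set chosen after seeing the data, was 0.33 with median centring, 0.27 with quantile normalisation, 0.23 with averaged probe sets, 0.24 without _s_at and _x_at probe sets and 0.25 to 0.28 without single arrays. Of 91 called genes named by the rule, 41 lost the call under at least 1 alternative and 0 reversed; averaging probe sets ended 28 of the calls. Without FpB6D2 array 2, Dmkn, Fgfr3, Lrp2, Serpinb9b and Sfrp2 fell under 2-fold, as did Serpinb1a and Fgfr3 without OpB6D2 array 5 and Tapbp without OpB6D2 array 4. Median centring did the same for Col3a1, Fgfr3, Pfkfb3, Serpinh1, Tapbp and Uhrf1. Medians of 17 lists changed sign in at least 1 alternative, all of them between -0.07 and 0.10 in the main analysis.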
